A study of Mus musculus with 50 samples.

Results

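The genes described are those of oxidative phosphorylation, the subunits of the respiratory chain and of the ATP synthase. They were taken by symbol from the counts matrix, as every row beginning Nduf, Sdha, Sdhb, Sdhc, Sdhd, Uqcr, Cox4 to Cox8, Atp5, mt-Nd, mt-Co, mt-Cyt or mt-Atp. This gave 109 of 19224 rows. Of these, 84 were counted as subunits encoded in the nucleus (38 of complex I, 4 of complex II, 8 of complex III, 18 of complex IV and 16 of complex V) and 13 are encoded in mitochondrial DNA (7 of complex I, 1 of complex III, 3 of complex IV and 2 of complex V). The remaining 12 are assembly factors that share the prefixes, 8 Ndufaf and 4 Sdhaf genes. Complexes were assigned by symbol prefix alone. Ndufa4 and Ndufa4l2 are thereby counted with complex I, Cox7a2l with complex IV and Atp5s with complex V. The prefix does not settle the complex of each protein, nor whether it is a structural subunit.

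In oxidative phosphorylation, complex I takes electrons from NADH and complex II takes them from succinate. Complex III passes them to cytochrome c and complex IV to oxygen, and the proton gradient built on the way drives complex V, the ATP synthase. Complex II is encoded wholly in the nucleus, whereas the other complexes join nuclear subunits with a small number made from mitochondrial DNA, so that both genomes contribute to 1 machine. Haematopoietic stem cells (HSCs) are known for low reliance on this pathway while quiescent and for a switch towards it on activation and differentiation.

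The cells came from mice in which single HSCs had been followed. Per the labels, each recipient was a lethally irradiated B6-Ly5.2 mouse given 1 GFP-positive HSC from a beta-actin-GFP transgenic donor together with unlabelled competitor marrow, and cells were taken at 1, 4 or 12 months (10, 26 and 14 labelled samples). Of these samples 35 were labelled bone marrow and 15 bone marrow and spleen. After c-Kit enrichment, single cells were sorted on surface markers or GFP, and a variant of Smart-seq2 (STRT-seq) was used, which keeps the 3' ends of transcripts. Cells could not be assigned to a month, a tissue, a recipient or a gate from the tables used, so the matrix was treated as 1 pooled sample, no p-value was computed, and libraries serve only to show how far a value varied.

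The matrix held 4271 cells in 67 libraries with totals of 1665151 to 26184494 counts. Of these cells, 4185 passed a minimum of 1000 genes with a count and a maximum of 10% mitochondrial counts. Their medians were 122013 counts, 4186 genes and 1.65% mitochondrial counts. All 13 mitochondrial rows of the matrix are among the genes described, so the 10% limit acts on them. It removed 10 cells, and leaving it out did not change the medians given for cycling cells. Values are CPM (counts per 1000000 counts of the summed cells). A CPM is a share of the counts, and more RNA per cell cannot be told apart from it.

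Cells were placed in classes by genes outside the pathway. The Procr+ non-cycling class, with at least 20 CPM of Procr (the HSC surface protein EPCR) and at most 3 of 24 cell cycle genes at 20 CPM, held 2097 cells from 63 libraries. The cycling class, with 8 or more cell cycle genes, held 366 cells from 62 libraries, of which 207 had Procr. In the cycling class the 8 erythroid markers summed to 71.4 CPM against 16.0 CPM in the Procr+ non-cycling class. Of the 8, 1 against 0 stood at 20 CPM or more, and none was at 0. A check list of 7 stem cell genes, not used to class cells, summed to 396 CPM against 733 CPM (4 against 5 of 7 at 20 CPM or more). Primary granule markers summed to 441 CPM against 854 CPM. Procr stood at 79.1 CPM against 353.7 CPM, and at 152.0 CPM in the 207 cycling cells with Procr. The part of these differences in the results was not tested. In the cycling class Mki67 and Top2a stood at 259.6 and 530.4 CPM, against 4.76 and 12.6 CPM in the Procr+ non-cycling class. A further 782 cells had at least 4 markers of a mature or committed lineage at 50 CPM, of which 324 also had Procr. The lineage label therefore goes only part of the way: these cells are called here by their markers, and values for those without Procr are given beside the pooled ones. The other 940 cells belonged to no class, and 344 cells lay between the 2 cycle limits. Of 95 position labels of the cells, 92 recur in more than 1 library. No doublet caller was run on these singly sorted cells.

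A gene was compared between classes where it reached 10 CPM over all kept cells, which 100 of the 109 genes did (77 nuclear subunits, 11 mitochondrial subunits and all 12 assembly factors), among 8611 genes in the matrix. The other 9 were mt-Atp8 at 5.94 CPM, mt-Nd4l at 5.19 CPM, 6 isoforms known from muscle, testis or other restricted tissues, and Ndufs3. Ndufs3, a core subunit of complex I, had 4 counts in all (0.0064 CPM). The last 400 bases of its annotated transcripts share 64.7% of their 50-base windows with other genes, pseudogene models Gm12251 and Gm11927 among them. Genes with more windows shared differed in level. In the Procr+ non-cycling cells Atp5l (78.6% shared) stood at 299.7 CPM and mt-Nd4l (98.8% shared) at 5.52 CPM. The part of shared windows in the near absence of Ndufs3 was not tested, and that absence is not read here as a lack of the transcript.

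In the Procr+ non-cycling cells the nuclear subunits together took 3.21% of all counts and the mitochondrial subunits 1.73%. Over the 57 libraries with at least 10 such cells, the nuclear share was 2.66% at the lowest, 3.19% at the median and 3.66% at the highest, with a coefficient of variation of 6.96%. The mitochondrial share was 1.00%, 1.69% and 2.35%, with a coefficient of variation of 13.0%. The mitochondrial share thus varied more from library to library than the nuclear share. Over these libraries, which differ in depth, the correlation of the 2 shares was near 0 (Pearson r -0.07 and Spearman rho -0.09, n = 57, given as a description).

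Of the nuclear complexes, complex V varied least over libraries (coefficient of variation 6.52%) and complex II, with its 4 genes, most (12.6%). The single gene of the pathway with the smallest variation among those above 30 CPM was Cox4i1, the common isoform of a regulatory subunit of complex IV, at 1130 to 1863 CPM with a median of 1447 CPM. Atp5a1 and Atp5b, the alpha and beta subunits that form the catalytic head of the ATP synthase, followed with 609 to 978 CPM and 663 to 1225 CPM. At the other end were mt-Nd3 and mt-Atp6, described further on, Atp5s (a coupling factor gene named with the ATP synthase), at 3.67 to 83.4 CPM with a median of 35.5 CPM, and Cox6b2, at 26.5 to 246.6 CPM with a median of 82.7 CPM.

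In cycling cells the nuclear subunits took a larger share of the counts, and the mitochondrial ones a smaller share. The nuclear subunits took 4.09% of counts in cycling cells against 3.21% in Procr+ non-cycling cells, whereas the mitochondrial subunits took 1.34% against 1.73%. The median log2 ratio (of CPM + 1) was 0.33 over the 77 nuclear subunits, 72 of which were above 0. It was -0.34 over the 11 mitochondrial subunits, none of which was above 0. Over all 8611 genes the median was -0.09.

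The comparison was repeated library by library. In the 32 libraries with at least 5 cells of both classes, the nuclear share was 3.06% to 4.57% in cycling cells (median 4.06%) and 2.70% to 3.66% in Procr+ non-cycling cells (median 3.15%). The ranges overlapped, yet the nuclear share was higher in the cycling cells of all 32 libraries. The mitochondrial share was 0.969% to 1.82% (median 1.43%) against 1.00% to 2.35% (median 1.69%), and it was lower in the cycling cells of 30 of the 32. The 2 exceptions were the libraries with the most cycling cells. They stood at 1.16% against 1.00% (38 cycling cells) and 1.70% against 1.58% (18 cycling cells). In these 2 libraries the nuclear median log2 ratios were 0.13 and 0.08, close to the 0.10 and 0.06 of all genes there. In 1 further library, with 6 cycling cells, the nuclear shares were nearly equal (3.06% against 3.05%). Of the 32 libraries, 12 held 5 cycling cells each. Without the library with 38, the nuclear and mitochondrial medians of the class were 0.34 and -0.34.

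**Figure D1:**
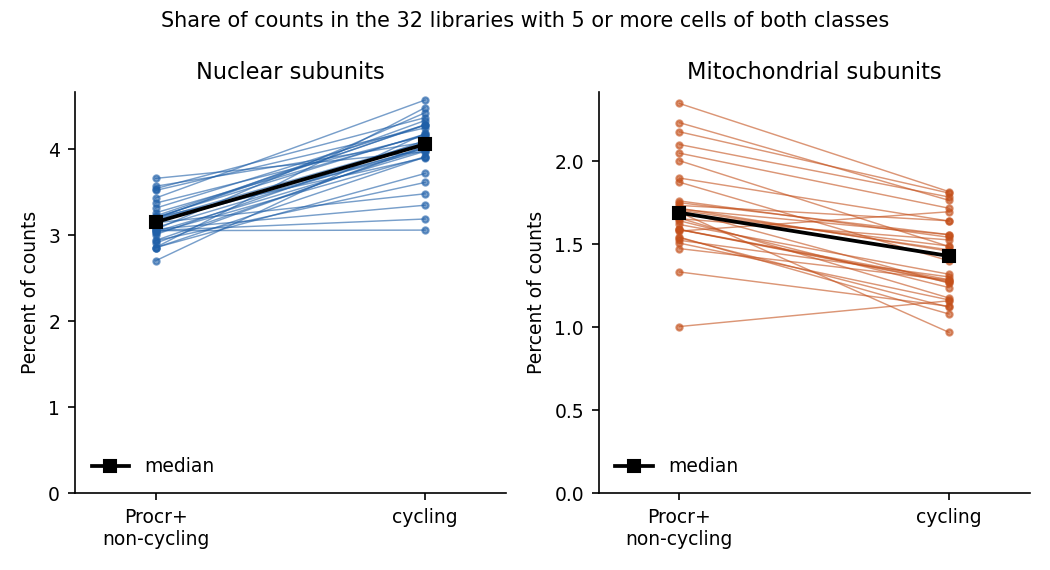
Share of counts (percent, from 0) taken by nuclear subunits (left) and mitochondrial subunits (right) in Procr+ non-cycling and cycling cells. Each line is 1 of 32 libraries and black squares are medians. All 32 lines rise on the left, and 30 of 32 fall on the right.

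Counted singly, 18 of the 100 genes were higher in cycling cells by a log2 ratio of at least 0.5, and 12.8% of all genes were. Only 2 were lower by as much, Cox7a2l and mt-Co1, where 18.5% of all genes were. Of the 18, 17 were nuclear subunits and 1 was the assembly factor Ndufaf2. The count higher thus lies near the share of all genes, and the count lower lies well below it. With the scaling changed to a median of ratios, 31 were higher past that size and 1 was lower, and with equal weight for each cell 12 were higher and 1 was lower.

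**Figure D2:**
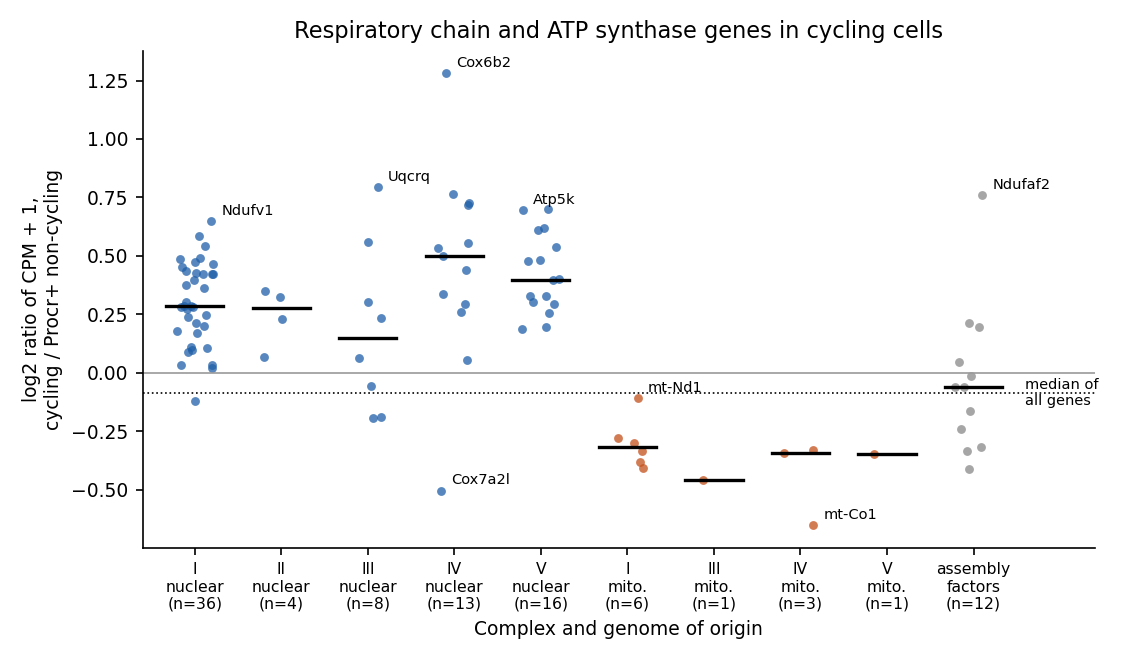
Log2 ratio of CPM + 1 in cycling over Procr+ non-cycling cells for the 100 genes compared, by complex and genome of origin. Points are genes, bars are medians, and the dotted line is the median of all genes (-0.09). Complexes IV and V have the highest nuclear medians, and every mitochondrial gene lies below 0.

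Complex I had a median of 0.29 over 36 nuclear subunits, 35 of them above 0 and 3 past the size limit. Ndufv1, the flavoprotein subunit where NADH is oxidised, ranged over the 32 libraries from 88.1 to 369.7 CPM in cycling cells (median 167) and from 69.5 to 233.4 CPM in Procr+ non-cycling cells (median 120). The ranges overlapped, and the log2 ratio of the summed cells was 0.65, with 25 of 32 libraries higher. The accessory subunits Ndufb6 and Ndufa2 had log2 ratios of 0.58 and 0.54. Reads of Ndufb6 are uncertain, since 39.0% of its exon bases lie in other genes, mainly Smim27 on the opposite strand, and the sources used here do not state whether counting used strand. Ndufa6, at 493.5 against 536.7 CPM, was the 1 nuclear subunit of complex I below 0.

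The 4 genes of complex II, which is also an enzyme of the citric acid cycle, had a median of 0.28 and none passed the size limit. Sdhb, the iron-sulfur subunit, stood at 374.5 against 293.9 CPM (log2 ratio 0.35, 21 of 32 libraries higher). Sdhd and Sdhc, the membrane anchors, had ratios of 0.33 and 0.23. For Sdha, the flavoprotein that oxidises succinate, it was 0.07.

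Complex III was uneven, with a median of 0.15 and 5 of 8 nuclear genes above 0. Its small accessory subunits Uqcrq, Uqcr10 and Uqcrb were higher. Uqcrq ranged from 183.9 to 917.6 CPM in the cycling cells of the 32 libraries (median 535) and from 162.5 to 446.4 CPM in Procr+ non-cycling cells (median 334). Its log2 ratio was 0.79, and 30 of 32 libraries were higher. Uqcr10 and Uqcrb had ratios of 0.56 and 0.30. The core proteins Uqcrc1 and Uqcrc2 and the hinge protein Uqcrh had ratios of -0.19, -0.06 and -0.19, and for Uqcrfs1, the Rieske iron-sulfur protein, the ratio was 0.06. Cyc1, the cytochrome c1 of complex III, falls outside the symbol prefixes and is not among the 8. It stood at 251.0 against 181.0 CPM (0.47, 25 of 32 libraries higher).

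Complex IV, cytochrome c oxidase, had the highest median (0.50 over 13 nuclear genes), with 7 genes higher past the size limit and 1 lower. The largest ratio of any gene of the pathway was that of Cox6b2, the isoform of subunit VIb known from testis. Over the 32 libraries it ranged from 44.8 to 528.1 CPM in cycling cells (median 207) and from 26.5 to 251.3 CPM in Procr+ non-cycling cells (median 83.4). The ranges overlapped, with 28 of 32 libraries higher. Summed, it stood at 239.4 CPM (exact Poisson 95% interval 235.9 to 242.8) against 97.9 CPM (96.8 to 99.1), a log2 ratio of 1.28. These intervals cover counting error only, and counts of amplified reads would make them too narrow. Cox6b2 was counted in 318 of the 366 cycling cells and in 1154 of the 2097 Procr+ non-cycling cells. Its gene lies at chr7:4751792-4753094 on the minus strand (GRCm38), none of its exon bases lie in another gene, and none of its end windows are shared with one.

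Cox5a, Cox5b and Cox7a2, other nuclear subunits of complex IV, had log2 ratios of 0.76, 0.72 and 0.72. Cox5b was 391.5 to 1014 CPM in the cycling cells of the 32 libraries (median 708) against 234 to 627 CPM (median 464), and 31 of 32 libraries were higher. Cox4i1 was level, at 1526 against 1470 CPM (ratio 0.05). Cox7a2l, described as a factor that joins complexes III and IV into supercomplexes (not measured here), went the other way from its complex. It ranged from 187.6 to 510.6 CPM in cycling cells (median 338) and from 366.4 to 632 CPM in Procr+ non-cycling cells (median 475), with a log2 ratio of -0.50 and 1 of 32 libraries higher.

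All 16 nuclear genes of complex V were above 0 (median 0.40) and 5 passed the size limit. The largest ratios were those of Atp5k (subunit e, which takes part in dimer formation) and Atp5o (the OSCP subunit of the stalk that holds the head), both 0.70. Atp5o ranged from 335.5 to 818.9 CPM in cycling cells (median 627) and from 161.4 to 539.6 CPM in Procr+ non-cycling cells (median 360), and all 32 libraries were higher. Its exons overlap those of other annotated genes over 47.9% of their bases, so its counts are uncertain. Atp5g3, Atp5g2 and Atp5g1, 3 genes for the same subunit c, had ratios of 0.62, 0.61 and 0.54. The catalytic subunits were at the lower end, with 0.20 for Atp5a1 and 0.30 for Atp5b.

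The mitochondrial genes were lower in the cycling class without exception among the 11 compared, by unequal amounts. The largest difference was in mt-Co1, the catalytic subunit of complex IV, which ranged over the 32 libraries from 674 to 1952 CPM in cycling cells (median 1320) and from 1196 to 2676 CPM in Procr+ non-cycling cells (median 1843). Its log2 ratio was -0.65, and 1 of 32 libraries was higher. For mt-Cytb, the cytochrome b of complex III, the log2 ratio was -0.46, with 3 of 32 libraries higher. mt-Co2 and mt-Co3 of complex IV had ratios of -0.34 and -0.33, and mt-Atp6, the channel subunit of the ATP synthase, -0.35.

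Among the core complex I genes of mitochondrial DNA, mt-Nd2, mt-Nd4, mt-Nd3, mt-Nd5 and mt-Nd6 had log2 ratios of -0.41, -0.38, -0.33, -0.30 and -0.28. mt-Nd1 moved least, at 3079 against 3321 CPM (-0.11, 13 of 32 libraries higher). mt-Nd6 is encoded on the strand opposite to the others and the ends of both genes overlap, over 0.8% of the exon bases of mt-Nd5 and 2.7% of those of mt-Nd6. Without strand in the counting, reads within that overlap cannot be told apart. Transcripts that run past the annotated ends were not examined, so counts of mt-Nd6 are uncertain. Nuclear pseudogene copies also bear on this group, since 98.0% or more of the end windows of mt-Co1, mt-Co2, mt-Co3, mt-Atp6, mt-Nd3 and mt-Nd4l occur in transcripts of other annotated genes. mt-Nd1, mt-Nd4, mt-Nd6 and mt-Cytb have no such window, and their ratios were also below 0, with the limit of strand given above for mt-Nd6. The 2 genes under 10 CPM, mt-Nd4l and mt-Atp8, had ratios of -0.29 and -0.45.

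The 12 assembly factors, which build the complexes and do not remain in them, did not follow the subunits (median -0.06, 4 above 0). Ndufaf2, a chaperone of complex I, was the exception at 161 against 94.8 CPM (0.76, 24 of 32 libraries higher). Of its exon bases 65.6% lie in an antisense gene, so its counts are uncertain. Ndufaf3 and Ndufaf1 had ratios of -0.41 and -0.34.

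Other lists of the pathway's surroundings were read in the same cells. A list of 10 carriers, uncouplers and related genes included Cyc1 of complex III. Of the 10, 8 were above 0 and 4 were higher past the size limit (median 0.40), where 12.8% of all genes were higher. The largest ratios were those of Cycs (cytochrome c, 0.97) and Slc25a5 (an ADP/ATP carrier, 0.85). Of 14 citric acid cycle genes 11 were above 0 and 1 passed, Idh3a (0.67), with a list median of 0.16. The mitochondrial ribosome, which translates the 13 mitochondrial genes, had 62 of 74 genes above 0 and 14 higher past the limit (median 0.19), led by Mrpl18 (1.10) and Mrpl42 (0.72), each higher in 32 of 32 libraries. Read against the 12.8% of all genes, the counts past the limit for the citric acid cycle and the mitochondrial ribosome lie near the background. The same holds for the count higher among the pathway's own genes.

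Of 10 genes that copy, transcribe or stabilise the products of mitochondrial DNA, 2 were above 0 (median -0.29), 0 were higher past the limit and 1 was lower, where 18.5% of all genes were lower. Twnk, the replicative helicase, had a ratio of -0.54 but was lower in only 18 of 32 libraries, and Mterf3, a regulator of mitochondrial transcription, had -0.50 and was lower in 25. Tfam, which packages mitochondrial DNA and starts its transcription, had 0.34 and was higher in 25. Ssbp1, Mterf4 and Lrpprc were near even over libraries, being lower in 17, 16 and 15. Assembly factors over all complexes had a median of -0.01, with 2 of 36 higher and 1 lower past the limit, both below the shares of all genes (12.8% and 18.5%). Of the regulators of mitochondrial biogenesis 4 were compared, and Nrf1, a transcription factor of respiratory genes, had the largest ratio (0.75, at 40.4 against 23.6 CPM).

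The cycling class was then split by Procr. The 207 cycling cells with Procr had a nuclear median of 0.30 and a mitochondrial median of -0.29, and 14 of the 100 genes were higher past the size limit (12.7% of all genes) and 0 lower (16.0%). In the 159 cycling cells without Procr the medians were 0.39 and -0.49, with 26 higher (14.6%) and 5 lower (24.7%). The cells with Procr were shallower, with a median of 112607 against 170639 counts.

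Both shares also changed in steps with the number of cell cycle genes. In cells with Procr and no lineage markers, the nuclear share was 3.15% with none of the 24 cycle genes, 3.25% with 1 to 3, 3.68% with 4 to 7, 3.81% with 8 to 15 and 4.05% with 16 to 24. The mitochondrial share over the same steps was 1.74%, 1.72%, 1.52%, 1.46% and 1.41%. Each step moved both shares in the directions seen between the classes.

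In cells without Procr the nuclear share went from 3.32% with no cycle gene to 4.34% with 16 to 24, and the mitochondrial share from 1.66% to 1.20%. Cox6b2 went from 84.1 to 256 CPM in cells with Procr and from 96.7 to 250.3 CPM in those without. Depth was not even over the steps. The median count per cell with Procr was 137298 with no cycle gene, 77058 with 8 to 15 and 217051 with 16 to 24, and its part in the result was not tested beyond thinning every cell to 20000 counts. With that thinning the medians of the cycling class were 0.28 and -0.25.

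**Figure D3:**
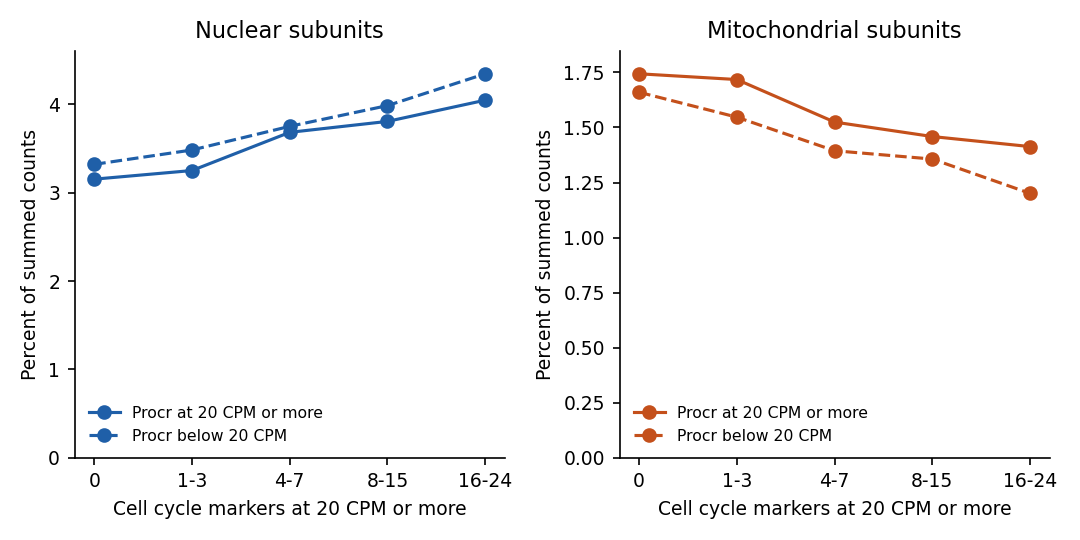
Share of summed counts (percent, from 0) of nuclear (left) and mitochondrial (right) subunits by the number of cell cycle genes at 20 CPM or more. Solid lines are cells with Procr and dashed lines cells without. The nuclear share climbs from 3.15% to 4.05% with Procr while the mitochondrial share declines from 1.74% to 1.41%.

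Within the cycling class, 152 cells had 12 or more of 16 mitosis genes, 160 had 6 to 11 and 54 had at most 5. The nuclear medians were 0.35, 0.35 and 0.27 and the mitochondrial medians -0.41, -0.31 and -0.26. The mitochondrial difference was thus widest in the cells with most mitosis genes. These cells were also the deepest, with median counts of 230096, 96208.5 and 144767 in the same order, and the part of depth was not tested.

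Because most nuclear subunits had ratios above 0 in cycling cells, the 250 bases before their start sites were searched. Both strands were read for 3 motifs of factors known to bind respiratory gene promoters. RefSeq promoters (GRCm38.p6) were matched for 63 of the 77 nuclear subunits. The NRF1 motif (GCGC, any 1 base, then TGCGC) was in 12 of them (19.0%) and in 677 of 6873 promoters of all genes compared (9.85%). The ETS motif CCGGAAG was in 10 (15.9%) and in 16.1% of all. The YY1 motif AAGATGGCG was in 0, and in 1.40% of all. Each motif was counted on its own, so a promoter may hold several and matches may overlap. These are letters in a window, and binding was not measured.

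Of the promoters with an NRF1 match within 150 bases of the start, the 3 with the highest ratios in cycling cells are shown with that of Cox6b2, which had the highest ratio of all and no match. Each is the 150 bases before the start, 5′ to 3′ on the gene's strand, which is minus for all 4, with matches to the NRF1 or ETS motif in capitals. Atp5k is at chr5:108434400-108434549, Atp5g2 at chr15:102671048-102671197, Cox6a1 at chr5:115348959-115349108 and Cox6b2 at chr7:4753095-4753244.
Atp5k: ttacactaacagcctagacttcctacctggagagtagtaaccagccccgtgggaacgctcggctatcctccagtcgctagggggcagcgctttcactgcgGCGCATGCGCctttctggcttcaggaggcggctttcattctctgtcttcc
Atp5g2: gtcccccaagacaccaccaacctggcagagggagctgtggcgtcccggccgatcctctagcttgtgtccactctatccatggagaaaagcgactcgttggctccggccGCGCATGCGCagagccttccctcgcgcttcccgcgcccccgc
Cox6a1: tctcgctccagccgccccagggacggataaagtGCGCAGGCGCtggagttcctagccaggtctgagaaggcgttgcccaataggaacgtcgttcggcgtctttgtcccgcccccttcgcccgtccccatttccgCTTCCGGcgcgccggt
Cox6b2: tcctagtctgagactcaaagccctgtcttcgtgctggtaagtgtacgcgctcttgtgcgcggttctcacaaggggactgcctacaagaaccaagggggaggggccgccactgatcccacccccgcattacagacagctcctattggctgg

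In these windows Atp5k and Atp5g2 carry the letters GCGCATGCGC, and Cox6a1 carries a match on the opposite strand together with an ETS match near the start. Their log2 ratios in cycling cells were 0.70, 0.61 and 0.55, against 1.28 for Cox6b2.

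Cells with lineage markers, pooled, differed little from Procr+ non-cycling cells (nuclear median 0.01, mitochondrial median 0.04, 4 of 100 genes higher and 4 lower past the size limit, against 20.5% and 17.7% of all genes). That pooled value covers lineages that lay on either side. In the lineages the median of all genes was itself below 0, from -0.43 in cells with plasma cell markers to -0.02 in those with macrophage markers, and each value below is to be read against it.

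**Figure D4:**
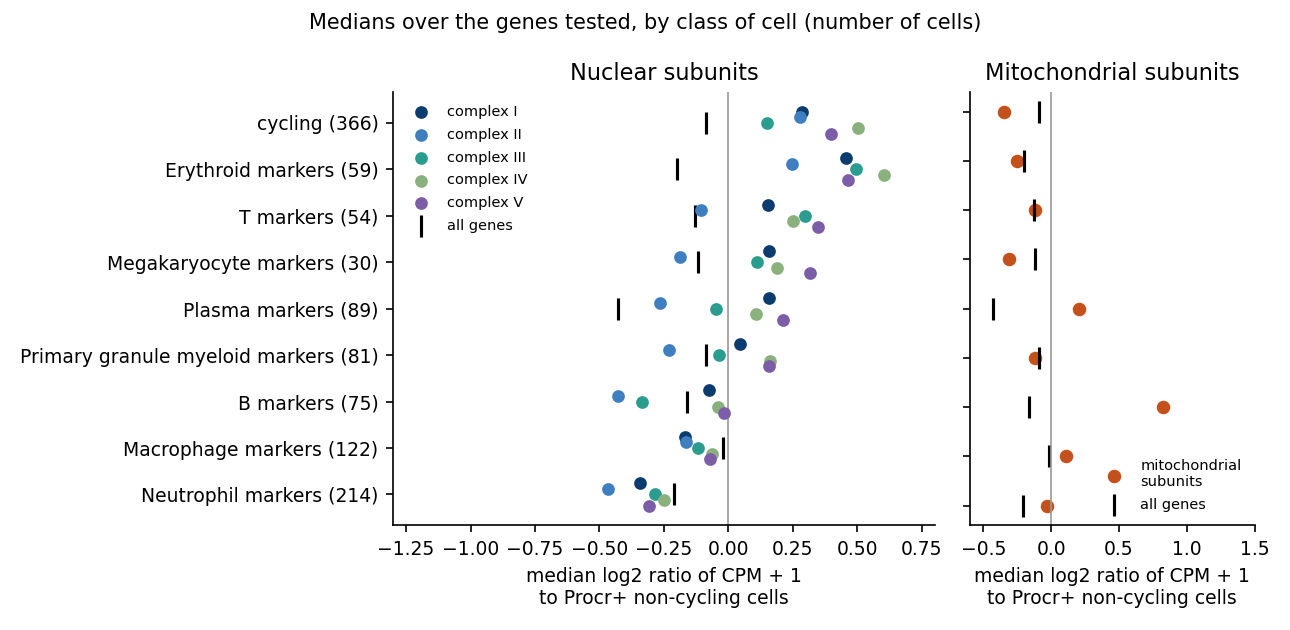
Median log2 ratio of CPM + 1 to Procr+ non-cycling cells for each nuclear complex (left) and for the mitochondrial subunits (right), by class, with the number of cells in brackets. Black ticks are the median of all genes. Taken over all nuclear subunits (not drawn), the median is highest with erythroid markers and lowest with neutrophil markers. For complex II the cycling class lies above the erythroid-marker cells. B cell markers go with the highest mitochondrial median (0.82).

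Cells with erythroid markers (59 cells, 45 of them with 8 or more cycle genes) had the highest nuclear values. The nuclear subunits took 4.53% of their counts, and their median log2 ratio was 0.47 where that of all genes was -0.20. Of the 100 genes, 38 were higher past the size limit (20.6% of all genes) and 7 lower (36.7%). In the 37 of these cells without Procr the nuclear share was 5.02% and the median 0.63, with 53 of the 100 higher (21.1%) and 8 lower (44.1%). In the 22 with Procr the median was 0.14.

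Every complex took part, with medians of 0.46, 0.25, 0.49, 0.61 and 0.46 for complexes I to V. Atp5g1 stood at 1210 against 425 CPM (1.51), Uqcrq at 772.5 against 331.3 CPM (1.22), Ndufv1 at 235.5 against 121.6 CPM (0.95) and Sdhd at 310.5 against 194.5 CPM (0.67). Cox6b2 was at 395.5 CPM (2.00), counted in 56 of 59 cells. Cox7a2l was at 219.6 against 489.7 CPM (-1.15), the same direction as in the cycling class.

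Mitochondrial subunits in the erythroid-marker cells had a median of -0.25, close to that of all genes, with 2 of 11 above 0. mt-Co1 and mt-Cytb had ratios of -0.74 and -0.62. Only 2 libraries held 5 or more cells of this class, so the library check is thin. The 8 neutrophil markers summed to 898 CPM in these cells, with 5 of 8 at 20 CPM or more and none at 0, against 28.4 CPM in the Procr+ non-cycling class, and their part in the result was not tested.

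Cells with T cell markers (54) and with megakaryocyte markers (30) also had nuclear medians above 0, of 0.25 and 0.17, where all genes had -0.13 and -0.12. In the T-marker cells 20 of the 100 genes were higher past the limit (22.1% of all genes) and 4 lower (33.8%). In the megakaryocyte-marker cells 13 were higher (16.3%) and 7 lower (28.8%). Cox5a (0.90 in the T-marker cells) and Atp5k (0.88 in the megakaryocyte-marker cells) had the largest ratios of the nuclear subunits there. Of the T-marker cells 18, and of the megakaryocyte-marker cells 12, had 8 or more cycle genes, and without such cells the T-marker nuclear median was 0.07 in cells with at most 3 of them. In the T-marker cells erythroid markers summed to 422 CPM (2 of 8 at 20 CPM or more, none at 0) against 16.0 CPM in the Procr+ non-cycling class. Neutrophil markers summed to 372 CPM (4 of 8, none at 0) against 28.4 CPM, and plasmacytoid dendritic markers to 827 CPM (2 of 8, 1 at 0) against 14.3 CPM. The part of these markers in the result was not tested. The mitochondrial medians were -0.12, which becomes 0.01 under median-of-ratios scaling, and -0.31.

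In cells with plasma cell markers (89) the genes of the pathway spread apart. The nuclear median was 0.10 and that of all genes -0.43; 25 of the 100 genes were higher past the limit (18.1% of all genes) and 12 lower (46.8%). Ndufa1, a membrane subunit of complex I, stood at 1357 against 258.3 CPM (log2 ratio 2.39) and Uqcrq at 1289 against 331.3 CPM (1.96). Both were higher in all 6 libraries with enough cells. Ndufv3 and Ndufs5 had ratios of 1.33 and 1.18.

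On the other side, Sdha stood at 106.2 against 233.9 CPM (-1.13, lower in 6 of 6 libraries), Cox6b2 at 21.2 against 97.9 CPM (-2.16) and Cox7a2l at 273.4 against 489.7 CPM (-0.84). In the 66 plasma-marker cells without Procr, Ndufa1 was at 1442 CPM and Uqcrq at 1396 CPM. The mitochondrial median was 0.20, but over libraries it was -0.14. These cells were shallow, with a median of 62825 counts. B cell markers summed to 2795 CPM in them (6 of 8 at 20 CPM or more, none at 0) against 70.5 CPM. Plasmacytoid dendritic markers summed to 2521 CPM (2 of 8, 1 at 0) against 14.3 CPM. Neutrophil markers summed to 464 CPM (4 of 8) against 28.4 CPM, and erythroid markers to 332 CPM (2 of 8) against 16.0 CPM. The part of depth and of these markers in the result was not tested.

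Cells with neutrophil markers (214, of which 111 had Procr) had the lowest nuclear values. Their nuclear share was 2.65% and their median -0.32, where all genes had -0.21. Of the 100 genes 0 were higher past the limit (21.6% of all genes) and 30 lower (32.1%), which is near the share of all genes. Ndufs7, a core subunit of complex I, stood at 251.5 against 450.1 CPM (-0.84, lower in 7 of 7 libraries). Atp5d, of the ATP synthase's central stalk, was at 355.6 against 538.2 CPM (-0.60), and Cox5a was at 119.7 against 86.4 CPM (0.47). Markers of other lineages were also found in these cells. Erythroid markers summed to 315 CPM (5 of 8 at 20 CPM or more) against 16.0 CPM in the Procr+ non-cycling class. Basophil or mast cell markers summed to 408 CPM (2 of 8) against 16.7 CPM, and plasma cell markers to 465 CPM (3 of 8) against 217 CPM. The part of these markers in the result was not tested.

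The mitochondrial median of the neutrophil-marker cells differed between those without and those with Procr. The pooled median was -0.03, and it becomes 0.19 under median-of-ratios scaling. In the 103 cells without Procr, where 2 of the 100 genes were higher (25.0% of all genes) and 46 lower (43.7%), it was -0.60 with 8 of 11 lower past the limit, mt-Cytb being at 2170 against 5190 CPM (-1.26). In the 111 with Procr it was 0.28 with 9 of 11 above 0. The cells without Procr had Mecom, a stem cell transcription factor gene, at 33.4 CPM, and those with Procr had it at 153.5 CPM, against 162.2 CPM in the Procr+ non-cycling class. The 2 parts also differed in cycling. Of the 103 cells without Procr 31 had 8 or more cycle genes, and of the 111 with Procr 22 did. Mki67 and Top2a stood at 306.4 and 310.1 CPM without Procr, and at 83.7 and 33.0 CPM with it. The part of cycling in this difference was not tested. Without 4 libraries in which Procr+ non-cycling cells carried over 100 CPM of neutrophil markers, the median of the class was -0.65.

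Cells with primary granule markers (81) had a nuclear median of 0.04, and those with macrophage markers (122) -0.13, where all genes had -0.09 and -0.02. Of the 100 genes 4 were higher and 5 lower past the limit in each of them (19.1% and 23.9% of all genes for primary granule markers, 23.1% and 14.5% for macrophage markers). The 8 neutrophil markers summed to 7441 CPM in the primary granule cells (8 of 8 at 20 CPM or more), above the 4275 CPM of their own 8 markers, and their part in the result was not tested. Ndufa1 (0.66) and Uqcrq (0.54) had the largest ratios of their complexes among the primary granule cells, but each was higher in only 2 of 5 libraries. In the macrophage-marker cells Ndufb9, an accessory subunit of complex I, was at 257.4 against 404.7 CPM (-0.65, lower in 4 of 4 libraries).

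The primary granule cells without Procr (29) had a mitochondrial median of -0.45, and those with Procr (52) had 0.11. The macrophage-marker cells had 0.22 without Procr and -0.02 with it. Of the 29 primary granule cells without Procr, 16 had 8 or more cycle genes, and the median of the primary granule class was 0.17 in its cells with at most 3. The part of cycling in these values was not tested further.

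Cells with B cell markers (75, of which 38 came from 1 library) had the highest mitochondrial values, 2.54% of counts and a median of 0.82 with all 11 genes above 0. Of the 100 genes 12 were higher (24.8% of all genes) and 12 lower (36.2%). In the 64 of them without Procr the mitochondrial median was 0.69, and without the library that held most of them it was 0.92. In these cells neutrophil markers summed to 1419 CPM (6 of 8 at 20 CPM or more) against 28.4 CPM in the Procr+ non-cycling class. Plasmacytoid dendritic markers summed to 2911 CPM (2 of 8) against 14.3 CPM and plasma cell markers to 1050 CPM (4 of 8) against 217 CPM. Erythroid markers summed to 357 CPM (6 of 8) against 16.0 CPM. None of these markers was at 0, and their part in the result was not tested. The nuclear median was -0.10, which becomes 0.06 under median-of-ratios scaling. mt-Nd3 (2.32), mt-Atp6 (1.55) and mt-Nd5 (1.11) had the largest ratios, and mt-Co1 and mt-Cytb were at 0.11 and 0.17. These were the shallowest cells, with a median of 38579 counts and 2124 genes, and 0 libraries held 5 cells of both classes, so the lineage and the library cannot be told apart here.

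Uqcrq was higher than in the Procr+ non-cycling cells in each of the 8 lineages and in the cycling cells, from 0.04 in the neutrophil-marker cells, where it was at 341.1 against 331.3 CPM, to 1.96 in the plasma-marker cells. In the neutrophil-marker cells with Procr it was -0.20, and within libraries it was higher in 3 of 7 for neutrophil markers and in 2 of 5 for primary granule markers. Cox7a2l was lower in all of them, from -0.34 in macrophage-marker cells to -1.15 in erythroid-marker cells, and over the pooled lineage-marker cells 23 of 27 libraries were lower (326 against 489.7 CPM, -0.59). Both genes have 0.0% of exon bases in other genes and no shared end window.

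Of the mitochondrial genes, mt-Nd3, which encodes a core subunit of complex I, varied most from library to library. Another annotated gene shares 98.0% of its end windows. In the Procr+ non-cycling cells of the 57 libraries it was at 35.6 CPM at the lowest, 95.1 CPM at the median and 1071 CPM at the highest, a coefficient of variation of 106%. It was under 100 CPM in 30 libraries, at 100 to 300 CPM in 10 and over 300 CPM in 17. mt-Atp6 ranged from 94.8 to 629.1 CPM (coefficient of variation 53.1%). For mt-Nd1 the range was 2290 to 4298 CPM (11.7%), and the other mitochondrial genes above 10 CPM lay between these.

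**Figure D5:**
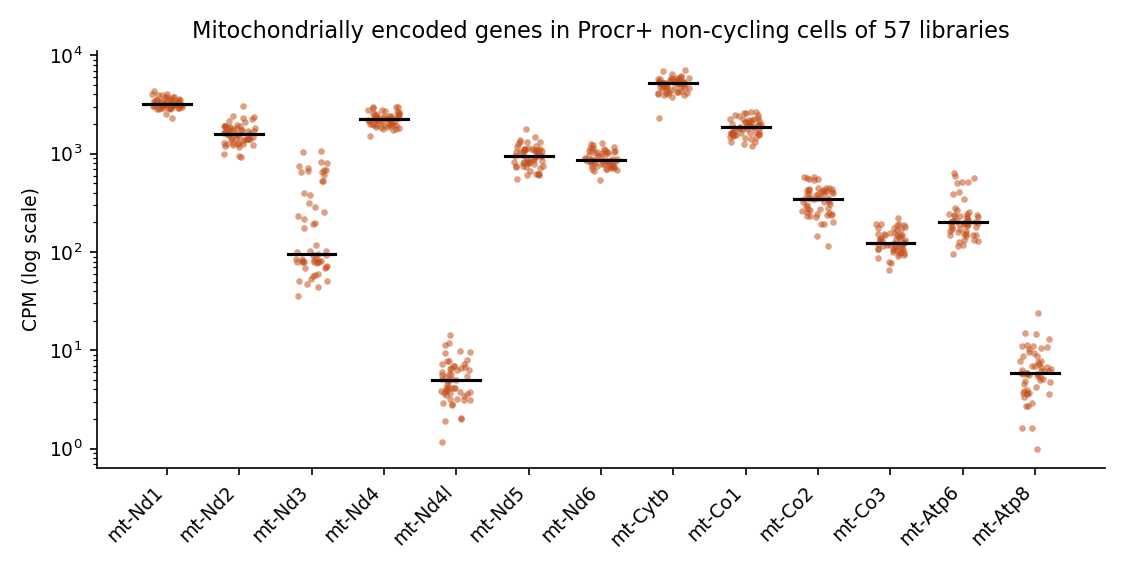
CPM (log scale) of the 13 mitochondrial genes in the Procr+ non-cycling cells of 57 libraries. Points are libraries with 10 or more such cells, bars are medians, and 1 library with mt-Atp8 at 0 is not drawn for that gene. mt-Nd3 spreads from 35.6 to 1071 CPM where mt-Nd1 keeps to 2290 to 4298 CPM.

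This spread touches the lineage comparison. Over the pooled lineage-marker cells mt-Nd3 stood at 435.1 against 194.6 CPM (log2 ratio 1.16), the largest of any mitochondrial gene there, and at 917.4 CPM in the plasma-marker cells (2.23). Within libraries the median ratios were 0.38 over 27 libraries, 19 of them higher, and 0.39 over 6 libraries, all higher. The 17 libraries over 300 CPM held 24.4% of the Procr+ non-cycling cells and 19.3% of the lineage-marker cells. Among the latter they held 53.9% of the plasma-marker, 17.3% of the B-marker, 9.26% of the T-marker and 3.27% of the neutrophil-marker cells. These are shares of all cells of a class. Libraries with under 10 Procr+ non-cycling cells had no mt-Nd3 value, and their cells count as outside the 17. The library with 38 of the 75 B-marker cells was 1 of these. The part of the library in the pooled ratio was not tested further.

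Subunit c of the ATP synthase forms the rotating ring and is made from Atp5g1, Atp5g2 and Atp5g3, whose mature products are the same protein while their transcripts differ. The last 90 coding bases of each (GENCODE M21, GRCm38) are shown to give the degree to which the transcripts differ. Where in the transcripts the counted reads fell was not examined. Bases that are not the same in all 3 are in capitals.
Atp5g1: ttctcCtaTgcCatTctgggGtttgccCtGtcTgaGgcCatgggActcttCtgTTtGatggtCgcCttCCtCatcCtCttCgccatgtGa
Atp5g2: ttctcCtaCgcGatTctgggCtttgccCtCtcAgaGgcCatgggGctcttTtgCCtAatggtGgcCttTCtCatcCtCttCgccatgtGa
Atp5g3: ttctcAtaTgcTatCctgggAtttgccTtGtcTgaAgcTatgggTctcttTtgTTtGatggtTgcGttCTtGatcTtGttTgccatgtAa

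Over the last 75 codons, stop codon included, Atp5g1 and Atp5g2 were 84.9% identical, Atp5g1 and Atp5g3 79.6% and Atp5g2 and Atp5g3 78.2%, and of the 34 differences between Atp5g1 and Atp5g2 32 were at the last base of a codon. Pseudogene copies hold 39.9% of the end windows of Atp5g1, 51.4% of those of Atp5g2 and 0.0% of those of Atp5g3, so counts of the first 2 are less certain. In Procr+ non-cycling cells their summed level was 948.8 CPM, of which Atp5g1 gave 44.8%, Atp5g2 30.2% and Atp5g3 25.0%. These are shares of counts from 3' ends, not corrected for length.

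Cycling cells had more of the sum (1420 CPM) at nearly the same mix (43.5%, 30.8% and 25.7%). In erythroid-marker cells the sum was 2066 CPM and Atp5g1 took 58.6%, with Atp5g2 at 16.6%. Plasma-marker cells had a mix like it (57.7% and 17.5%) at a sum of 1161 CPM. The higher sum thus went with another mix in the erythroid-marker cells and with nearly the same mix in the cycling cells.

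Among the restricted isoforms, Cox6a2 (the heart and muscle form of subunit VIa, chr7:128205435-128206387) was confined to few cells. It averaged 8.35 CPM over all kept cells and 0.60 CPM in the Procr+ non-cycling class. The 44 cells with at least 100 CPM held 93.0% of its counts, and 38 of these had lineage markers, 15 of them plasma cell markers and 8 neutrophil markers. In the plasma-marker cells it stood at 144 CPM (exact Poisson 95% interval 136.3 to 152), counted in 22 of 89 cells, and in 3 cells with plasmacytoid dendritic markers it stood at 1025 CPM, counted in all 3.

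Cox4i2, the isoform of subunit IV known from lung and low oxygen, was at 10.0 CPM in the Procr+ non-cycling class, where 208 of 2097 cells had a count. It was at 64.4 CPM in plasma-marker cells, from 11 of 89 cells, and higher in only 1 of 6 libraries. It was at 0.14 CPM in erythroid-marker cells (2 of 59 cells). Cox7a1, the muscle form of subunit VIIa, was at 3.12 CPM in the Procr+ non-cycling class (70 cells with a count) and Cox8b at 0.47 CPM (25 cells). Cox7b2, Cox8c and Ndufa4l2 were at 0.0067, 0.0067 and 0.040 CPM there, from 2, 2 and 12 cells.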

How the data were processed

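The authors deposited unnormalized integer counts of each gene in each cell. The submitters' processing notes name HTSeq 0.9.1, HISAT2 2.1.0 and Trimmomatic 0.36 with the GRCm38 build. They do not say whether reads or molecules were counted, nor whether strand was used. The columns of 1 further library (17 cells) and a list of runs were not used. Cells under 1000 genes or over 10% mitochondrial counts were dropped and the rest classed by marker genes and summed to CPM with Python 3.11.15, numpy 2.4.6, scipy 1.17.1 and pandas 2.3.3. Ratios are log2 of CPM + 1, for genes at 10 CPM or more over kept cells, and 0.5 is the size limit. With 1 pooled sample there was no test. The summing was tested on simulated data. Named genes are the 3 largest ratios of each complex, all mitochondrial genes, the restricted isoforms and the largest of each list; genes named beyond these were chosen after their values were seen. The genes described and all lists were chosen with earlier results of these data known. Members were placed with GENCODE M21, and promoters come from RefSeq GRCm38.p6.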

Additional observations from a re-analysis of the deposited data

How the results depend on the processing

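No paired analysis was possible because no cell is tied to a sample, so replicate numbers cannot be used. Of 352 alternative values, 310 kept their direction and stayed within the spread over libraries (or within 0.1 where fewer than 3 libraries had a value). In the cycling class the nuclear median ran from 0.28 to 0.42 and the mitochondrial median from -0.39 to -0.25 over 16 alternatives. The count of genes higher past the size limit was 18 and ran from 12 (equal weights) to 31 (median-of-ratios scaling). The count lower went from 2 to 1 with thinning, equal weights, that scaling, a pseudocount of 5 CPM, 6 cycle markers or medians over libraries, and to 0 in cycling cells with Procr.

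With median-of-ratios scaling, the mitochondrial medians became 0.19 for neutrophil, -0.047 for erythroid, -0.20 for megakaryocyte, 0.98 for B, 0.65 for plasma and 0.010 (reversed) for T cell markers, and the nuclear medians 0.67 for erythroid, 0.29 for megakaryocyte, 0.065 for B, 0.54 for plasma and 0.38 for T cell markers. That scaling takes out the median of all genes computed without the pseudocount over genes counted in both classes, -0.22 in the neutrophil and -0.44 in the plasma class, against -0.21 and -0.43 with it. With medians over libraries, mitochondrial values were 0.19 for neutrophil, and reversed to 0.074 for primary granule and -0.14 for plasma markers, and the macrophage nuclear value reversed to 0.0089. With equal weights the primary granule mitochondrial median reversed to 0.030, the B one was 0.70 and the T nuclear one 0.13. With thinning, the B medians were -0.21 (nuclear) and 0.72 (mitochondrial) and the T nuclear one 0.14. With no minimum CPM, mitochondrial medians were -0.43 for megakaryocyte, 0.65 for B and, reversed, -0.069 for macrophage markers. With 5 lineage markers the neutrophil nuclear median was -0.53, and without the library with most B-marker cells their mitochondrial median was 0.92.

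Other alternatives were chosen after seeing the data. In lineage-marker cells without Procr the mitochondrial median was -0.60 for neutrophil, -0.45 for primary granule and 0.69 for B markers, and the erythroid nuclear median was 0.63. Without the 4 libraries with neutrophil markers, mitochondrial medians were -0.65 for neutrophil and 0.68 for B markers. With at most 3 cycle markers, the primary granule mitochondrial median reversed to 0.17 and the T nuclear median was 0.067. Where no value or construction shows it, the cause was not tested. Depth limits the B, T and plasma classes most, with medians of 38579, 53329 and 62825 counts per cell.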
